A study of Homo sapiens with 24 samples.

Results

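Ephrins and their Eph receptors were followed in a human lung tumour line (H838, non-small cell carcinoma) before and after its monolayer was wounded. The 10 genes are 5 receptors (EPHA2, EPHA4, EPHB2, EPHB3 and EPHB4) and 5 ligands (EFNA1, EFNA4, EFNA5, EFNB1 and EFNB2). They were chosen by name, with earlier results of these data known, and matched by symbol to the annotation of the bead array. The receptor EPHB2 has no probe named here and was not analysed. The other 9 genes are covered by 11 probes, and 5 genes (EPHA2, EPHB4, EFNA1, EFNA4 and EFNB2) gave enough signal to be among the 11494 genes tested, of 20031 named genes on the array.

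The study grew H838 monolayers below a transwell filter with 0.4 µm pores, beside primary endothelial cells of the human pulmonary artery (HPAEC) or, as the control, beside further H838 cells. All wells were kept in the endothelial growth medium, which holds fetal calf serum, EGF, bFGF, an IGF, VEGF, ascorbic acid, heparin and hydrocortisone, and which H838 cells do not receive in routine culture. Confluent monolayers were scratched several times, and total RNA of the H838 cells was taken from unscratched wells (0 h) and at 9 times after scratching (0.5 h, 1 h and 2 h, then each hour to 5 h, then 10 h, 15 h and 24 h). Each co-culture gave 12 of the 24 Illumina HT-12 arrays, with duplicates for 0 h and 24 h and single arrays for the rest. For the tests the times were also pooled into windows, called early for 0.5 to 2 h, middle for 3 to 5 h and late for 10 to 24 h.

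Some limits apply to all results. One tumour line was used, the labels do not say whether duplicates were separate cultures, and p-values therefore measure the spread between these samples, which may be technical. No unscratched cells were taken after 0 h, so wounding and time in culture cannot be told apart. The 2 HPAEC arrays numbered 2 (0 h and 24 h) carry HPAEC in their title and co-culture label but H838 as second cell line, and were kept as HPAEC. The array names place 10 of the 12 HPAEC arrays and 2 H838 arrays on chip 1 and the rest on chip 2, so chip was a term in every model. Arrays detected 15488 to 17555 probes (32.75% to 37.13%). Bulk RNA cannot tell fewer expressing cells from less RNA per cell.

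The monolayers were checked against marker genes. Of 20 endothelial markers 11 gave no detected signal on any array, including KDR, CDH5 and VWF. By their best probes MMRN1 and SOX18 were detected on all 24 arrays, EGFL7 on 21, CD34 on 6, NOS3 on 5 and TEK on 3. PECAM1, CLDN5 and ERG were detected on 1 each. Summed raw signal over that list's probes was 5693 to 7725 beside HPAEC and 5294 to 6972 beside H838. Of the epithelial markers EPCAM was detected on all 24 arrays and KRT18 on 21, but KRT8 on 2, KRT19 on 1, CDH1 on 4 and KRT7 on 0. Of 8 fibroblast and smooth muscle markers 5 (COL1A1, COL1A2, COL3A1, LUM and ACTA2) were detected on all 24, PDGFRB on 22, DCN on 1 and MYH11 on 0. Summed raw signal over that list's probes was 23730 to 30360 beside HPAEC and 26000 to 37320 beside H838.

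Eph receptors are the largest family of receptor tyrosine kinases, and their ligands, the ephrins, are tethered to the surface of neighbouring cells. Class A ephrins are held by a lipid anchor and mostly bind EphA receptors, while class B ephrins cross the membrane and mostly bind EphB receptors, and signals run into both the receptor cell and the ephrin cell. They are known for contact repulsion, for sorting cells at tissue boundaries and for guiding axons and vessels. In epithelial tumours EPHA2 and its ligand EFNA1 are known for their part in migration and contact inhibition, and EFNB2 and EPHB4 mark arterial and venous endothelium.

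The stretches just upstream of the start sites are shown for the 5 measured genes, because their transcripts took different courses over the same hours. Each line holds the 250 bases before the RefSeq start, 5′ to 3′ on the gene's strand (RefSeq, GRCh38.p14). Capitals mark matches, on either strand, to AP-1 (TGANTCA), CRE (TGACGTCA), EGR (GCGNGGGCG) and CArG box motifs and to TATAAA.
EPHA2, chr1:16156070-16156319, minus strand: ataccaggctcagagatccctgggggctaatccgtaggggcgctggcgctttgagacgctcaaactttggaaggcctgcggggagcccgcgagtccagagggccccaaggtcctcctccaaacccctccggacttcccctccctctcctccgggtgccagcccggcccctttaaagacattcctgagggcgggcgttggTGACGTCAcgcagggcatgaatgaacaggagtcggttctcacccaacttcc
EPHB4, chr7:100827524-100827773, minus strand: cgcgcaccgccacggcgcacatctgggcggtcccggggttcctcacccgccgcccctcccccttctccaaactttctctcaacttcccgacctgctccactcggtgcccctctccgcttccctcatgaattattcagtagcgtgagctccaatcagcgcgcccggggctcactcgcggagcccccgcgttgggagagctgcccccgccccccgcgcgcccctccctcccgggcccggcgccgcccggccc
EFNA1, chr1:155127626-155127875, plus strand: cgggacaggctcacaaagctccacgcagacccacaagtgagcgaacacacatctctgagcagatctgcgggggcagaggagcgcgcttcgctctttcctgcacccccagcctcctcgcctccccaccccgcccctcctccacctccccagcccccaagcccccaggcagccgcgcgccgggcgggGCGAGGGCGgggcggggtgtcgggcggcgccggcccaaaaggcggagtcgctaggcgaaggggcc
EFNA4, chr1:155063490-155063739, plus strand: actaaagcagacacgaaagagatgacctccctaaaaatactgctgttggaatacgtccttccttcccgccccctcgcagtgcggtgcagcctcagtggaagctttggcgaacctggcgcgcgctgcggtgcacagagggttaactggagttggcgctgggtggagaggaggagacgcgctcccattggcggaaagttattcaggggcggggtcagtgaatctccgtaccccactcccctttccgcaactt
EFNB2, chr13:106535663-106535912, minus strand: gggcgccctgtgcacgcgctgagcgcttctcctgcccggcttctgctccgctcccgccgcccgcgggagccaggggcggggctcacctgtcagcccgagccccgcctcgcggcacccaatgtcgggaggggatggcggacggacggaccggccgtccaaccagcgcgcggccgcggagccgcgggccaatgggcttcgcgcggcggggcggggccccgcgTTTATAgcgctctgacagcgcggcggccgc
EPHA2 held a CRE match that starts 51 bases before its start site, a motif present in 1.65% of 35116 promoters of this length. EFNA1 held an EGR match starting at base -65 (8.41% of promoters), which overlaps a GC box, and EFNB2 a TATAAA match on the opposite strand at base -30 (10.7%). The GC box GGGCGG, found in 42.6% of promoters, occurred 1 time in EPHA2, 4 in EPHB4, 5 in EFNA1, 2 in EFNA4 and 3 in EFNB2. Matches to AP-1 (6.57% of promoters), the hypoxia response core ACGTG (18.5%), the E-box CACGTG (6.34%) and the CArG box (1.16%) numbered 0 in all 5 windows. A match is a stretch of letters and not a measured site. EFNA4 and EFNA1 lie on the same strand of chromosome 1 with EFNA3 between them. GC content was 63.2% in EPHA2, 72.8% in EPHB4, 73.2% in EFNA1, 58.4% in EFNA4 and 78.4% in EFNB2.

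Detection set which members could be followed. EPHA2, EPHB4, EFNA1, EFNA4 and EFNB2 were each above background (detection p under 0.01) on all 24 arrays with 1 probe. EPHA4, a receptor that binds ephrins of both classes, EPHB3, a class B receptor, and EFNA5, a class A ligand, were detected on 0 of 24. EFNB1, a class B ligand encoded on the X chromosome, was detected on 0 of 12 HPAEC arrays and 1 of 12 H838 arrays. Raw intensities of these 4 probes spanned 100.1 to 152.5 for EPHA4, 80.91 to 106.8 for EPHB3, 63.14 to 107 for EFNA5 and 100.4 to 144.5 for EFNB1, and no fold is given for them.

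**Figure D1:**
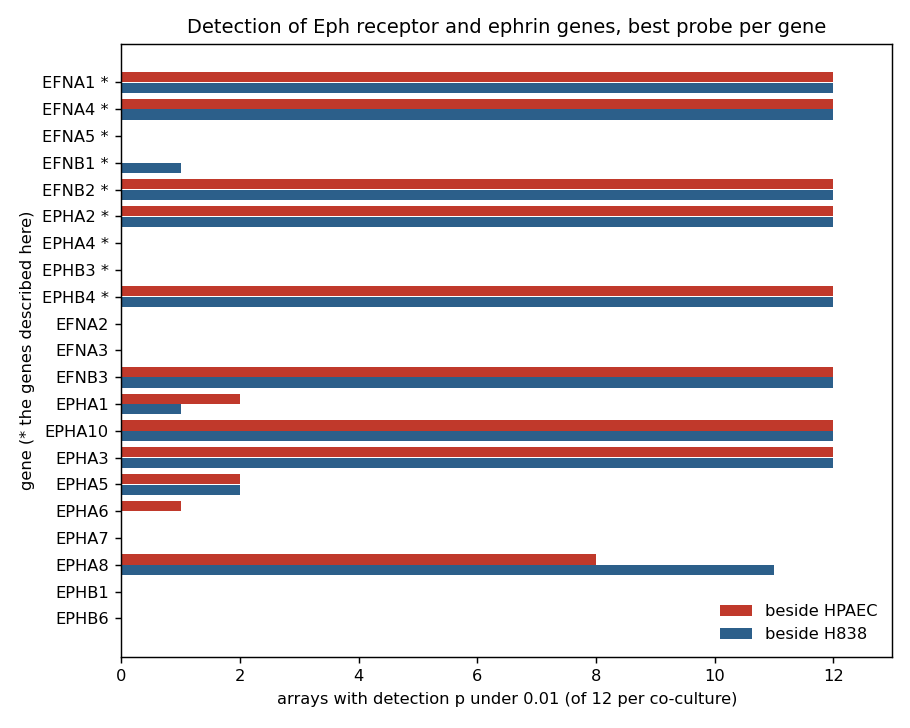
Number of arrays, of 12 per co-culture, on which the best probe of each Eph or ephrin gene had a detection p-value under 0.01 (x axis, arrays; upper bars beside HPAEC, lower bars beside H838; asterisks mark the genes followed here). The 5 tested genes reach 12 in both co-cultures, EFNB1 reaches 1 beside H838, and EPHA4, EPHB3 and EFNA5 show no bar.

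The ligand transcripts moved in opposite directions after scratching, with EFNA1 and EFNA4 lower and EFNB2 higher, while the receptor EPHA2 rose briefly. EPHA2 reached its highest level at 2 h in both co-cultures, EFNA1 and EFNA4 reached their lowest levels at 3 to 5 h, and EFNB2 was highest at 15 h beside HPAEC and at 24 h beside H838. EPHB4 was not called. Over the 9 times after scratching the moderated F test of limma called 4 of the 5 tested members, against 22.9% of all 11494 genes (Benjamini-Hochberg adjusted p under 0.05, as in all calls). The members were chosen with earlier results known, so such shares, here and below, are no test of enrichment. The share of all genes also includes genes detected on as few as 2 arrays, whereas the 5 members were detected on all 24. All values below are log2 normalized intensities of 1 array each, and changes are log2 differences with their SE from the model over 24 arrays.

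**Figure D2:**
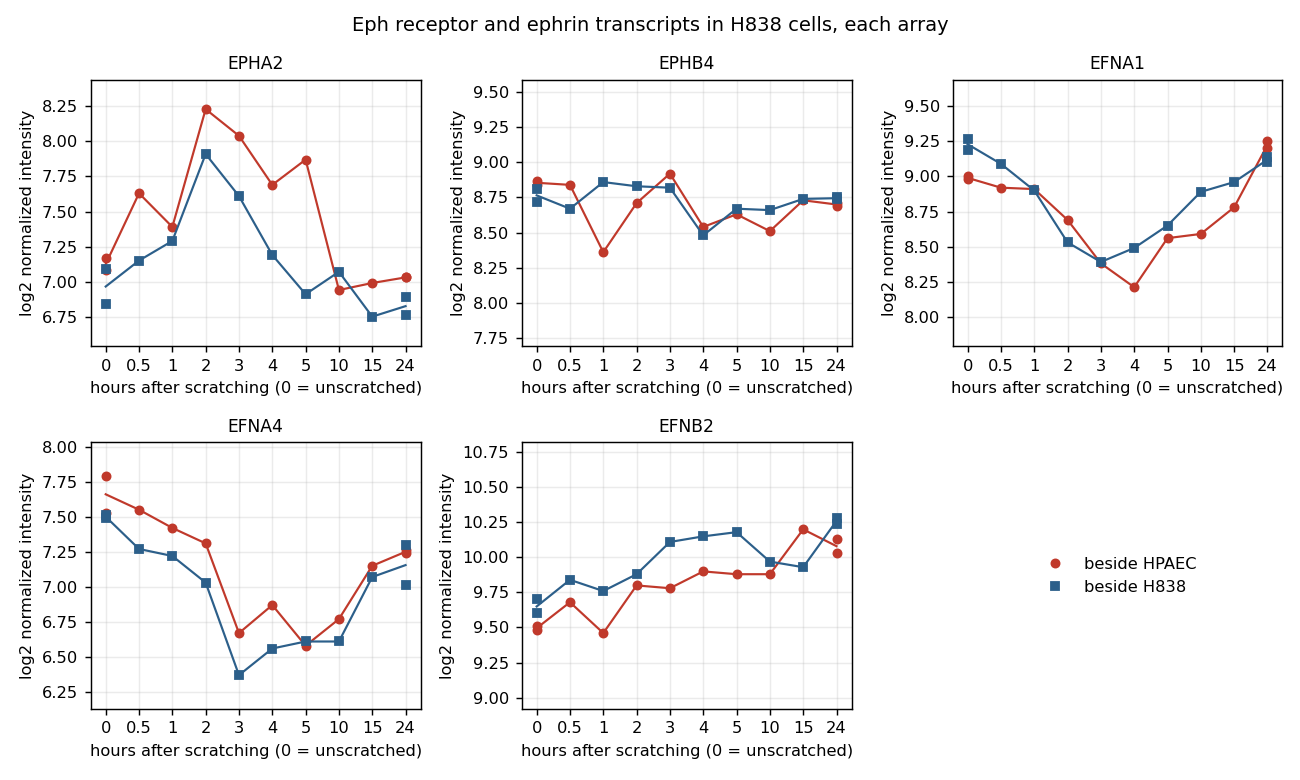
Log2 normalized intensity (y axis) of the 5 tested members on each of the 24 arrays against hours after scratching (x axis, times evenly spaced and not to scale; circles beside HPAEC, squares beside H838; lines join the means of each time). EPHA2 peaks at 2 h, EFNA1 and EFNA4 dip between 3 and 10 h, EFNB2 ends above its 0 h arrays, and EPHB4 stays between 8.36 and 8.92.

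EPHA2, the receptor tyrosine kinase that binds EFNA1 and is often abundant in carcinoma cells, rose for a few hours, most at 2 h. Beside HPAEC its level was 7.08 and 7.17 at 0 h, then 7.63, 7.39, 8.23, 8.04, 7.69, 7.87, 6.94 and 6.99 over the single times up to 15 h, and 7.03 on both arrays at 24 h. Beside H838 it was 6.84 and 7.09 at 0 h, then 7.15, 7.29, 7.91, 7.61, 7.19, 6.91, 7.07 and 6.75 at the same later times, and 6.76 and 6.89 at 24 h. All HPAEC arrays from 0.5 to 5 h lay above the 4 unscratched arrays, as did the H838 arrays from 1 to 4 h, and the 24 h arrays lay within or below the unscratched range. The change was 1.03 ± 0.16 at 2 h (2.04-fold, adjusted p = 0.0018) and 0.78 ± 0.16 at 3 h (1.71-fold, adjusted p = 0.00716). It was not called at the other single times, among them 4 h (0.40 ± 0.16), 5 h (0.35 ± 0.16), 10 h (-0.04 ± 0.16) and 24 h (-0.12 ± 0.13, 95% interval -0.40 to 0.15). At 2 h the change ranked 16th from the top of 11494 genes. In the early window it was 0.56 ± 0.12 (adjusted p = 0.0466), the only member called there against 0.461% of all genes, and in the middle window 0.51 ± 0.12 (adjusted p = 0.00772). The early call ended in 18 of 24 fits that each left out 1 array (change 0.52 to 0.62, adjusted p 0.00494 to 0.219), and the 3 h call ended without either 3 h array (adjusted p = 0.106 without the HPAEC one and 0.0554 without the H838 one), whereas the 2 h call held in all 24 (adjusted p at most 0.0377). Without background correction the 2 h change was 0.67 (adjusted p = 2.98e-05), the 3 h change 0.49 (adjusted p = 0.00118) and the middle change 0.32 (adjusted p = 0.00204). Under median scaling the 3 h change was 0.61 (adjusted p = 0.0807). The middle call ended without both HPAEC arrays numbered 2 (0.45, adjusted p = 0.0754).

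EFNA1, the class A ligand of EPHA2 and a gene first described as induced by TNF in endothelium, fell and came back. Among single times EPHA2 was called higher at 2 and 3 h only. EFNA1 was called lower at 2 h (-0.50 ± 0.10, adjusted p = 0.0212) and at each later time up to 10 h. Beside HPAEC its level was 8.98 and 9.0 at 0 h, then 8.92, 8.91, 8.69, 8.38, 8.21, 8.56, 8.59 and 8.78 from 0.5 to 15 h, and 9.25 and 9.20 at 24 h. Beside H838 it was 9.19 and 9.27 at 0 h, then 9.09, 8.90, 8.53, 8.39, 8.49, 8.65, 8.89 and 8.96, and 9.14 and 9.10 at 24 h. All 6 arrays of 3 to 5 h lay between 8.21 and 8.65, below the 4 unscratched arrays, which spanned 8.98 to 9.27. The largest change was -0.76 ± 0.10 at 4 h (1.69-fold lower, adjusted p = 0.000441), and the middle window gave -0.66 ± 0.077 (adjusted p = 3.8e-05). At 10 h it was still lower (-0.37 ± 0.10, adjusted p = 0.0323), at 15 h not called (-0.24 ± 0.10), and at 24 h the change was 0.07 ± 0.086 (95% interval -0.11 to 0.25). A second EFNA1 probe, above background on 7 arrays only, gave -0.56 ± 0.21 in the middle window (adjusted p = 0.115).

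EFNA4, another lipid-anchored class A ligand, fell and, on the brighter of its 2 probes, was still lower at 24 h. Beside HPAEC its level was 7.79 and 7.53 at 0 h, then 7.55, 7.42, 7.31, 6.67, 6.87, 6.58, 6.77 and 7.15 from 0.5 to 15 h, and 7.26 and 7.24 at 24 h. Beside H838 it was 7.51 and 7.49 at 0 h, then 7.27, 7.22, 7.03, 6.37, 6.56, 6.61, 6.61 and 7.07, and 7.30 and 7.01 at 24 h. With this probe no array of the middle or late window reached the unscratched range of 7.49 to 7.79, so recovery by 24 h was partial on it. The change was -1.06 ± 0.098 at 3 h (2.08-fold lower, adjusted p = 1.31e-05), -0.97 ± 0.073 over the middle window (adjusted p = 5.49e-07) and -0.57 ± 0.071 over the late window (adjusted p = 0.000117). At 3 h it was the 5th lowest and in the middle window the 12th lowest of 11494 genes. At 24 h it was -0.36 ± 0.082 (1.28-fold lower, adjusted p = 0.00943). Without background correction the middle change was -0.56 (adjusted p = 3.32e-08) and with the authors' series matrix values -0.63 (adjusted p = 3.61e-09).

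A second EFNA4 probe, designed to another transcript and above background on 23 arrays, followed the first (Pearson r = 0.805 over 24 arrays that the probes share, a description). It changed by -1.01 ± 0.12 in the middle window (adjusted p = 7.67e-05) and -1.11 ± 0.16 at 3 h (adjusted p = 0.00122). Over the late window it gave -0.27 ± 0.12 and at 24 h -0.18 ± 0.13, neither called (adjusted p = 0.153 and 0.465), so the lasting part of the fall was called with 1 of the 2 probes.

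**Figure D3:**
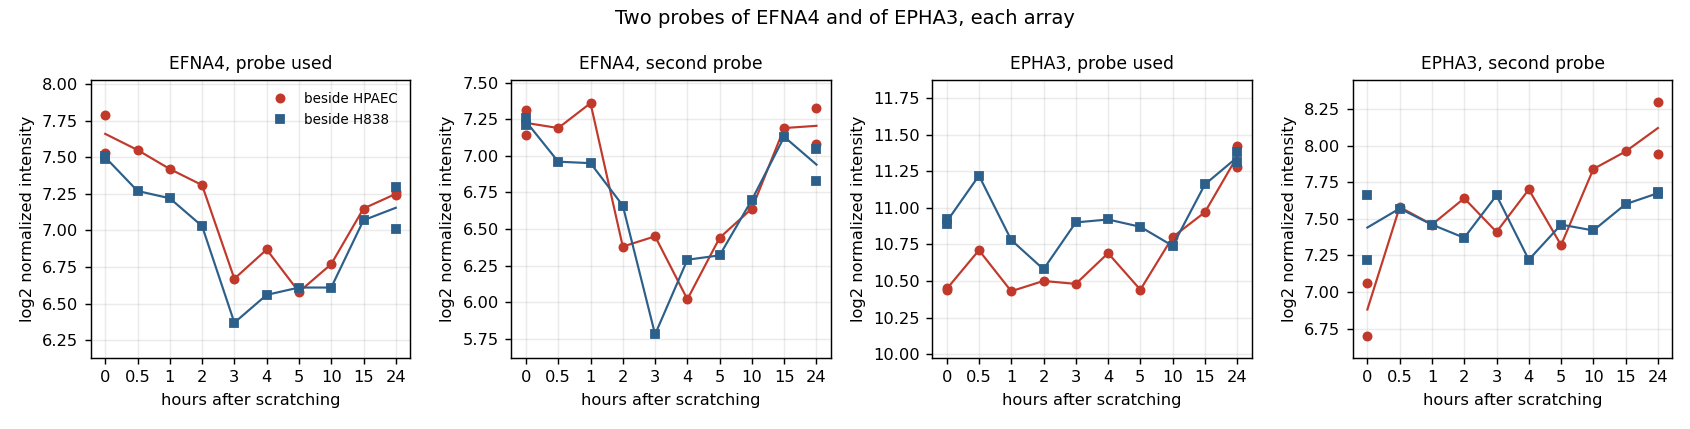
Log2 normalized intensity (y axis) on each array for the probe used and a second probe of EFNA4 and of EPHA3, against hours after scratching (x axis, evenly spaced; circles beside HPAEC, squares beside H838; lines join time means; each panel has its own y range). Both EFNA4 probes are low at 3 to 5 h. The EPHA3 probes both end higher at 24 h than at 0 h, the second probe mainly beside HPAEC.

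EFNB2, the transmembrane ligand of EPHB4 and a known marker of arterial endothelium, was higher in the middle and late windows than before scratching. Beside HPAEC its level was 9.48 and 9.51 at 0 h, then 9.68, 9.46, 9.80, 9.78, 9.90, 9.88, 9.88 and 10.20 from 0.5 to 15 h, and 10.13 and 10.03 at 24 h. Beside H838 it was 9.70 and 9.60 at 0 h, then 9.84, 9.76, 9.88, 10.11, 10.15, 10.18, 9.97 and 9.93, and 10.24 and 10.28 at 24 h. All 14 arrays of the middle and late windows lay at or above 9.78, over the unscratched range of 9.48 to 9.70. The change was 0.43 ± 0.076 in the middle window (adjusted p = 0.00152), 0.48 ± 0.074 in the late window (adjusted p = 0.000608) and 0.60 ± 0.085 at 24 h (1.52-fold, adjusted p = 0.000391). The 15 h call (0.49 ± 0.10, adjusted p = 0.00995) rested on the HPAEC array, without which it was 0.26 (adjusted p = 0.248). Under median scaling the middle change was 0.33 (adjusted p = 0.112). Genes listed as markers of other cell types also moved in the late window. COL3A1, LUM and MMRN1 were detected on all 12 arrays beside H838 and PDGFRB on 11, although those wells were set up with H838 cells only. Of 6 tested fibroblast and smooth muscle markers (8 listed) COL3A1 (0.33 ± 0.091, adjusted p = 0.0238) and LUM (0.38 ± 0.12, adjusted p = 0.0364) were higher. PDGFRB (-0.39 ± 0.11, adjusted p = 0.0264) was lower. Summed raw signal over that list's probes was 28040 to 37320 on the 8 late arrays and 23800 to 29470 on the 4 unscratched arrays. Of 6 tested endothelial markers (20 listed) MMRN1 was higher in the late window (0.27 ± 0.088, adjusted p = 0.0458) and SOX18 in the middle window (0.27 ± 0.087, adjusted p = 0.0445). That list's summed signal was 6066 to 7725 on middle, 5294 to 6441 on late and 6067 to 6517 on unscratched arrays. KDR, CDH5 and VWF were detected on 0 arrays, and EGFL7, CD34, NOS3 and TEK on 21, 6, 5 and 3. The part of these markers in the EFNB2 result was not tested.

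EPHB4, the receptor of EFNB2, was not called at any time. Beside HPAEC its level was 8.87 and 8.84 at 0 h, then 8.84, 8.36, 8.71, 8.92, 8.54, 8.63, 8.51 and 8.73 from 0.5 to 15 h, and 8.69 and 8.71 at 24 h. Beside H838 it was 8.72 and 8.81 at 0 h, then 8.67, 8.86, 8.83, 8.82, 8.48, 8.67, 8.66 and 8.74, and 8.74 and 8.75 at 24 h. The 0 h arrays lay within the range of the later ones, and 8.36 at 1 h beside HPAEC was the lowest value. The largest change was -0.30 ± 0.10 at 4 h (95% interval -0.52 to -0.08, adjusted p = 0.102), and the F test gave an adjusted p of 0.221. That test passed only without the H838 1 h array, which left the HPAEC array alone at that time (adjusted p = 0.0234).

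By window, the early window held 1 called member, the middle window 4 (2 higher and 2 lower, against 15.3% of all genes) and the late window 2, EFNB2 higher and EFNA4 lower (15.5% of all genes). At single times 0 members were called at 0.5 h (0.244% of genes) and 1 h (0.339%), 3 at 2 h (1.5%), 4 at 3 h (5.98%), 3 at 4 h (5.73%), 3 at 5 h (7.71%), 3 at 10 h (10.5%), 2 at 15 h (6.59%) and 2 at 24 h (11.4%). Groups that did not overlap with the 4 unscratched arrays were EFNB2 (higher) and EFNA1 and EFNA4 (lower) in the middle window, where 9.47% of genes did so, and EFNB2 and EFNA4 in the late window (4.79%). In the early window 0 members and 1.24% of genes did so. The median change of the 5 tested members was -0.13 in the middle window, beside -0.01 over all genes. Under median scaling, which moves the median of all genes to -0.14 in the early and -0.094 in the middle window, the 2 members lower in the middle window, EFNA1 and EFNA4, were called, EPHA2 (0.44, adjusted p = 0.0671) and EFNB2 were not, and EPHA2 was not called in the early window (0.45, adjusted p = 0.267). On either chip alone, with 1 and 2 residual degrees of freedom, 0 members were called. The middle changes on chip 1 and chip 2 were -0.60 and -0.66 for EFNA1, -1.08 and -0.96 for EFNA4, 0.36 and 0.51 for EFNB2 and 0.73 and 0.18 for EPHA2. All 3 to 5 h arrays on chip 1 were HPAEC and all on chip 2 were H838. Chip and co-culture therefore cannot be told apart in these values.

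**Figure D4:**
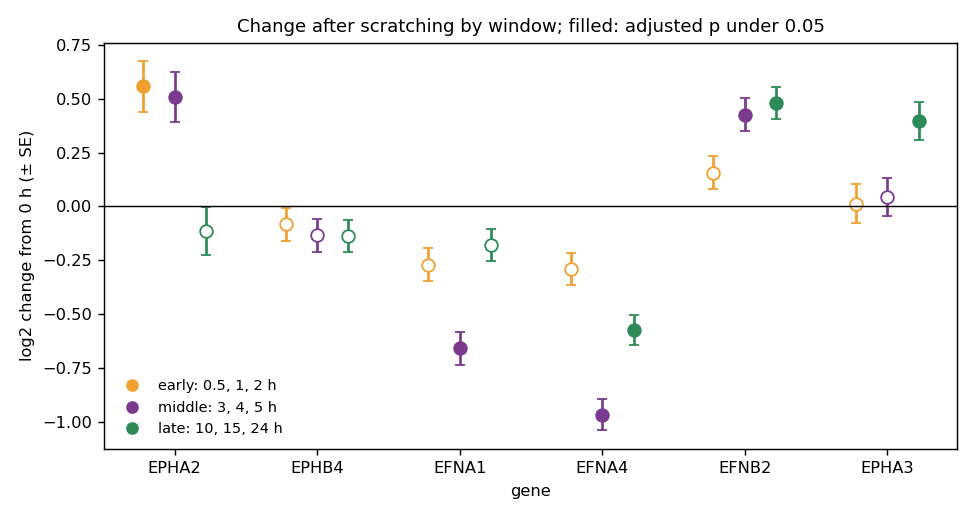
Log2 change from 0 h (y axis, points with SE bars over 24 arrays) of the 5 tested members and EPHA3 in the early, middle and late windows (filled points have an adjusted p under 0.05). EPHA2 is above 0 early and in the middle window, EFNA1 and EFNA4 are below 0 in the middle window, and EFNB2 stays above 0.

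The times with duplicates, 0 and 24 h, were also compared on their own 8 arrays. EFNB2 was higher by 0.61 ± 0.069 at 24 h (adjusted p = 0.00547) and was the single member called, against 7.51% of all genes. EFNA4 was lower by 0.36 on the log2 scale (-0.36 ± 0.095, adjusted p = 0.0596), and EPHA2, EPHB4 and EFNA1 gave -0.14 ± 0.078, -0.10 ± 0.070 and 0.08 ± 0.092. Replicates of a group differed by at most 0.30 (EFNA4), 0.25 (EPHA2), 0.10 (EFNB2), 0.09 (EPHB4) and 0.08 (EFNA1). The EFNB2 call ended without the HPAEC 24 h replicate 1 array and without both HPAEC arrays numbered 2. Without the HPAEC 24 h replicate 1 array far fewer of all genes were called too, so that loss is not particular to EFNB2.

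The second question is whether an endothelial neighbour changed these transcripts. No member was called for the co-culture effect (HPAEC minus H838, adjusted for time and chip), while limma called 232 genes, or 2.02%, and 2186 genes had an unadjusted p under 0.05. EPHA2 had the smallest adjusted p of the members, with a difference of 0.32 ± 0.10 (1.25-fold, 95% interval 0.10 to 0.54, adjusted p = 0.118). It was higher beside HPAEC at 9 of 10 times, with differences not adjusted for chip from -0.13 at 10 h to 0.96 at 5 h. EFNB2 was -0.18 ± 0.069 (95% interval -0.33 to -0.04, adjusted p = 0.164), lower beside HPAEC at 9 of 10 times, the exception being 15 h. Counts of times, here and below, are not adjusted for chip. From 1 h to 15 h all HPAEC arrays were on chip 1 and all H838 arrays on chip 2.

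The other members had smaller differences between the co-cultures. EFNA4 gave 0.13 ± 0.066 (adjusted p = 0.287) and was higher beside HPAEC at 9 of 10 times, EFNA1 gave -0.11 ± 0.069 (adjusted p = 0.425) and was lower at 7, and EPHB4 gave 0.03 ± 0.069 (95% interval -0.11 to 0.18, adjusted p = 0.836). Array pairs that shared time and chip can be read without the chip term (0 h and 0.5 h on chip 1, 0 h and 24 h on chip 2). They differed, HPAEC minus H838, by 0.24, 0.48, 0.07 and 0.20 for EPHA2 and by -0.22, -0.16, -0.09 and -0.22 for EFNB2. With chip left out of the model 3 members passed (EPHA2 and EFNA4 higher, EFNB2 lower), as did 1723 of all 11494 genes, against 0 members with chip in the model.

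**Figure D5:**
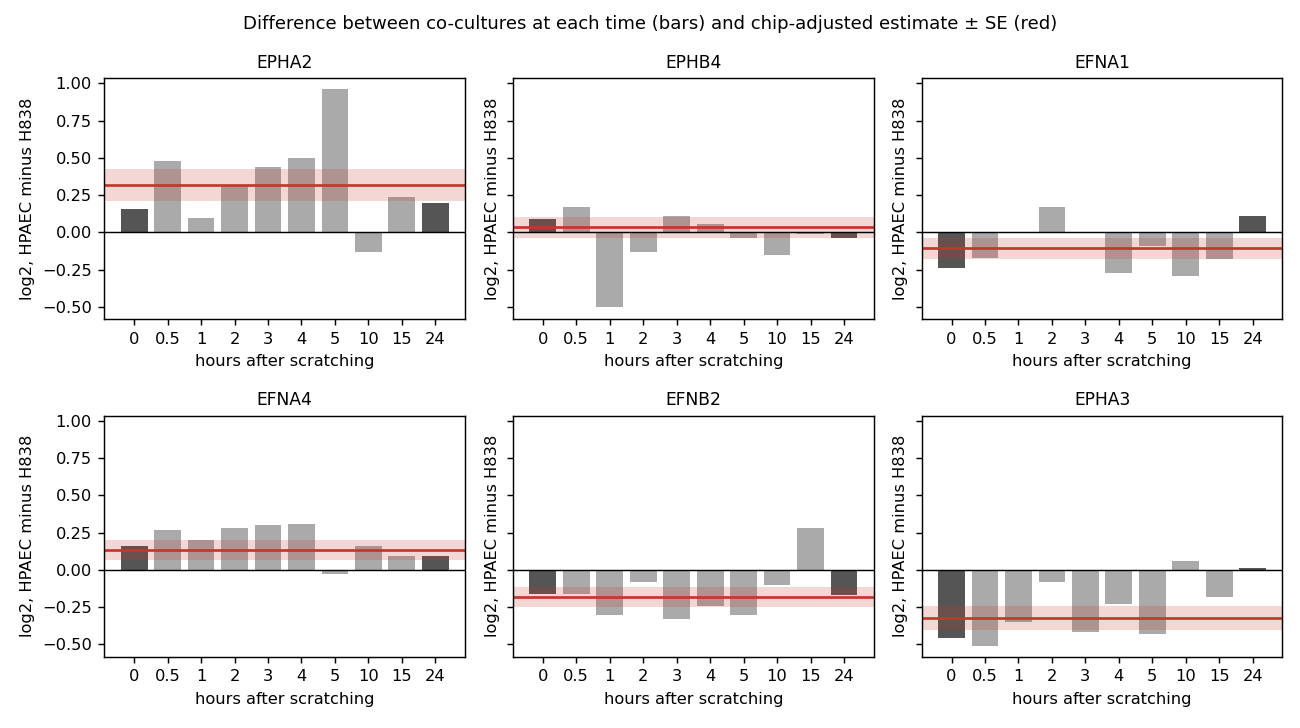
Difference in log2 normalized intensity, HPAEC minus H838 (y axis), at each time after scratching (x axis, evenly spaced) for the 5 tested members and EPHA3 (dark bars: means of duplicates; light bars: 1 array each side; line and band: estimate ± SE adjusted for time and chip). The bars, not adjusted for chip, are above 0 for EPHA2 and EFNA4 and below 0 for EFNB2 at 9 of 10 times.

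Whether the response to scratching itself differed beside HPAEC was tested with window changes per co-culture. The F test called 0 of 11494 genes and 0 members (530 genes had an unadjusted p under 0.05, none of them a member). EPHA2 changed by 0.85 ± 0.23 beside HPAEC and by 0.17 ± 0.23 beside H838 in the middle window, a difference of 0.68 ± 0.35 (95% interval -0.04 to 1.40, adjusted p = 0.979). Its 5 h values, 7.87 beside HPAEC and 6.91 beside H838, were the farthest apart of any time. EFNA4 changed by -0.97 ± 0.18 beside HPAEC and -0.96 ± 0.18 beside H838, with an interval of the difference from -0.57 to 0.55. EFNA1 gave -0.59 ± 0.19 beside HPAEC and -0.73 ± 0.19 beside H838 (difference 0.14 ± 0.28), and EFNB2 0.34 ± 0.13 and 0.51 ± 0.13 (difference -0.17 ± 0.19).

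The rest of the family was looked at for context. Of 12 further Eph and ephrin genes 6 were tested, EPHA3, EPHA10 and EFNB3 detected on all 24 arrays, EPHA8 on 19, EPHA5 on 4 and EPHA1 on 3. EPHA3, a receptor of class A ephrins often expressed in mesenchymal cells, was higher at 24 h by 0.70 ± 0.10 (1.62-fold, adjusted p = 0.000426) and in the late window by 0.40 ± 0.086 (adjusted p = 0.00621). A second EPHA3 probe, also detected on all 24 arrays, gave 0.81 ± 0.18 at 24 h (adjusted p = 0.0105). The late markers given beside EFNB2 (COL3A1, LUM and MMRN1 higher, PDGFRB lower) moved in the same window, and their part in the EPHA3 result was not tested. EPHA3 was also lower beside HPAEC (-0.32 ± 0.08, adjusted p = 0.0487), a call that ended in 19 of 24 fits that left out 1 array, and its second probe gave -0.11 ± 0.14 (adjusted p = 0.753). EPHA5 was called lower in the middle window but was above background on 0 of 6 middle and 1 of 4 unscratched arrays. Its unscratched mean lay below the detection floor of the middle arrays, so no size of a fall is given.

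Genes that act with Eph receptors inside the cell were counted beside the share of all genes called, 15.3% in the middle and 15.5% in the late window. Of 24 tested genes of adaptors, kinases and phosphatases (29 listed), 2 were higher and 1 lower in the middle window (12.5% of the list), with a list median of -0.085 beside -0.01 over all genes. PTPN1, a phosphatase known to act on EPHA3 and other receptor kinases, rose by 0.41 ± 0.078 (adjusted p = 0.00246), the adaptor NCK1 rose by 0.19 ± 0.058 and PICK1, a PDZ protein that binds class B ephrins, fell by 0.20 on the log2 scale. In the late window (8.33% of the list) NCK1 rose by 0.30 ± 0.056 and DVL2, a Dishevelled protein, fell by 0.20. Of 16 tested exchange factors, GTPases and effectors (20 listed) 3 were lower in the middle window (18.8% of the list), the EphA-linked exchange factor NGEF, also called ephexin (-0.35 ± 0.089), the kinase PAK2 (-0.23 ± 0.067) and RAC1 (-0.20 ± 0.06), and 0 higher. In the late window (25% of the list) CDC42 and ITSN1 were higher (0.23 ± 0.063 and 0.20 ± 0.06), and RIN1 and NGEF were lower (-0.39 ± 0.11 and -0.36 ± 0.086). None of the 2 tested proteases was called in any window, and no gene of these lists was called in the early window or for the co-culture effect.

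The genes whose course was most like that of each member were read from 20 means (10 times in 2 co-cultures, centred within each), as a description. They were RARA, IER3 and MIDN for EPHA2 (Pearson r 0.900, 0.882 and 0.871), FAM221A, CCNG2 and FNDC11 for EFNA1 (0.917, 0.915 and 0.910), YEATS2, PIK3IP1 and TBC1D31 for EFNA4 (0.914, 0.908 and 0.894) and USP14, GDF11 and RGL1 for EFNB2 (0.872, 0.865 and 0.850). Among the members EFNA1 and EFNA4 ran most alike (r = 0.773), EPHA2 and EFNA1 ran opposite (r = -0.568), as did EFNA4 and EFNB2 (r = -0.550). All these points share arrays and normalization.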

How the data were processed

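Each probe has, on every array of the deposited non-normalized table, a linear bead intensity and a detection p-value (per the file headers). The series matrix holds the authors' normalized intensity (column medians 116.46 to 116.55), and the software they used is not given in the sources used here. Per the labels' protocols RNA was column-purified and amplified to biotinylated cRNA. Here intensities were background-corrected with limma's normal-exponential model (offset 16, control statistics taken out of the detection p-values), then quantile normalized and logged (log2). Of 47286 probes 30080 had 1 gene symbol in the supplied annotation. A probe was kept if 2 or more arrays detected it at a p-value under 0.01 (20054 probes), and each gene was read from its brightest kept probe.

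Limma's moderated tests (both sides, Benjamini-Hochberg adjustment over 11494 genes, threshold 0.05) used 3 models, each with chip as a term: 10 times plus co-culture over 24 arrays (12 residual degrees of freedom), windows per co-culture (15), and the 8 arrays of 0 and 24 h (4). The largest change stands for the time effect. On simulated data of 11494 genes the middle-window test recovered 77% of changes of 0.5 and 100% of changes of 1 on the log2 scale. The co-culture test recovered 80% and 100%, the time test 63% and 96%, and the difference between co-cultures 26% and 77%. These shares hold for simulated data. The windows per co-culture pool times that differ, which adds to the residual, so recovery of a difference between co-cultures may be lower here. Arrays have no read depth, and their number limits the precision. Tools were R 4.3.3, limma 3.58.1 and data.table (version 1.17.8).

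The members and gene lists were chosen with earlier results of these data known. All 10 members are named, then list genes past the threshold in a window or the co-culture effect, and for each member past the time test the 3 genes with the highest correlation. Alternatives were background correction, scaling, starting table, detection filter, probe choice, chip handling, replicate block and single arrays. Replicate numbers were not taken as pairs: deviations of same-numbered arrays correlated between -0.0462 and 0.133.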

Additional observations from a re-analysis of the deposited data

How the results depend on the processing

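Counts of called members were recomputed under 12 alternatives (11 for the duplicated times, 10 for the difference between co-cultures) and in 24 fits that each left out 1 array. In the main fit the shares of all genes called were 22.9% for time, 0.461% early, 15.3% middle and 15.5% late. They were 2.02% for co-culture and 7.51% for the duplicated times. Such shares also change with the setting and are not given for each, so these counts are not results about the members alone. Where 2 members were called at the duplicated times, the share ranged from 10% (chip as a random block) to 17.2% (detection on all 24 arrays). Under median scaling the share in the middle window was 5.25%. The time effect had 4 members, the middle window 4 and the late window 2 under every alternative except those named here. Under median scaling the middle window had 2 and the early window 0. Without both HPAEC arrays numbered 2 the middle window had 3, EPHA2 being lost. Within chip 1 and within chip 2 the time effect, the early, the middle and the late window had 0 each, as few residual degrees of freedom remain, and within chip 2 the 24 h comparison on duplicated arrays had 0. The early window also had 0 with no filter on detection, with every kept probe tested, with the replicate block and without both HPAEC arrays numbered 2. The co-culture effect had 3 with chip as a random block and 3 when chip was left out, where the number of all genes called rose too (given above). For 24 h on duplicated arrays the count of 1 became 2 (EFNB2 higher, EFNA4 lower) with chip as a random block or left out, without background correction, with the series matrix and with detection on all 24 arrays, and 0 without both HPAEC arrays numbered 2. With the replicate number as a block, whose pairing the labels do not state, EPHA2 gave 0.63 in the early window (adjusted p = 0.0689, limma), and the middle window had 4 members, the late window 2, the time effect 4, the duplicated times 1 and the co-culture effect 0. Leaving out 1 array gave 0 to 0 members for the co-culture effect and for the difference between co-cultures, 0 to 1 for the early window and for the duplicated times, 4 to 4 for the middle window, 2 to 2 for the late window and 4 to 5 for the time effect. The sign reversed for EPHB4 only, in values that were not called: its co-culture effect was -0.04 with chip as a random block, -0.03 when chip was left out and 0.00 within chip 2, and its early change 0.02 within chip 2. Of the other values for single genes 1221 kept direction and side of the threshold, 100 lost the call and 7 gained it. The difference between co-cultures could not be fitted within a chip, nor the duplicated times within chip 1. Dim probes limit what can be seen: EPHA4, EPHB3, EFNA5 and EFNB1 gave no level on these arrays.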
